A study of Mus musculus with 24 samples.

Results

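The genes described here are 8 surface molecules of intestinal crypt cells that are used to sort or label them: Cd24a, Cd44, Prom1, Epcam, Alcam, Itgb1, Itga6 and Pecam1. They were taken by name from a deposited table of 43280 gene symbols, and all 8 were found. The table holds RNA counts from 24 libraries of the mouse small intestine. Male Lgr5-EGFP C57BL/6 littermates had received intraperitoneal neuregulin 1 (NRG1, a growth factor for ErbB receptors), at 7.5 µg every 12 h for 5 days, or PBS as vehicle, with small intestine collected on day 6. In each treatment, the mice of replicates 1 and 2 were 15 weeks old and the mouse of replicate 3 was 11 weeks old.

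From each of the 3 NRG1 mice and 3 PBS mice, crypt cells were sorted into 4 populations, which gave 8 groups of 3 libraries. The labels call Lgr5high-CD24low cells crypt base columnar stem cells, Lgr5med-CD24low cells immediate progenitors, Lgr5low-CD24low cells subsequent progenitors and Lgr5neg-CD24neg cells differentiated cells. Every mouse carried the reporter, in which EGFP is driven from the Lgr5 locus, so the populations are gates on EGFP and CD24 and not purified cell types. Dead cells and cells positive for CD31 or CD45 had been gated out. Both Cd24a and Pecam1 therefore encode proteins that were used in the sort: Cd24a encodes CD24 and Pecam1 encodes CD31. The difference in Cd24a between the CD24low and CD24neg gates checks the sort and is not a finding. CD31-positive cells were removed from all 4 populations alike.

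In GRCm38 with the GENCODE vM21 annotation the genes span chr10:43578284-43584265 (Cd24a, plus strand), chr2:102811141-102901665 (Cd44, minus strand), chr5:43993620-44102032 (Prom1, minus strand) and chr17:87635979-87651129 (Epcam, plus strand). The others span chr16:52248996-52454074 (Alcam, minus strand), chr8:128685654-128733200 (Itgb1, plus strand), chr2:71745616-71858416 (Itga6, plus strand) and chr11:106654217-106750628 (Pecam1, minus strand). Cd24a shares a stretch of 216 bases with the near copy Gm6212 and Itga6 one of 326 bases with Gm29397, which are 11.9% and 7.6% of the transcript. Counts of Gm6212 were not used here, and Gm29397 had 0 to 4 counts per library, against at least 1075 for Itga6.

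CD24 is a small glycoprotein anchored to the membrane by a lipid, and in the crypt it is high on Paneth and some secretory cells and lower on stem cells. CD44 is the receptor for hyaluronan and a Wnt target in the crypt. Prominin 1, the product of Prom1, marks membrane protrusions of epithelial progenitors, and EpCAM and ALCAM are adhesion molecules, EpCAM being present throughout the intestinal epithelium. Integrin alpha 6 pairs with beta 1 or beta 4 to bind laminin in the basement membrane, and PECAM1 is an adhesion molecule of endothelium and of some leukocytes.

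Of the 8 genes 5 matched an entry. The start regions of the 2 genes with the steepest gradient that had an entry, and of the gene that ran the other way, are shown from RefSeq (GRCm38.p6), each from 250 bases before to 50 bases after a gene start, with the GC box GGGCGG, on either strand, in capitals. Cd44 lies at chr2:102901616-102901915, Prom1 at chr5:44101687-44101986 (both on the minus strand) and Epcam at chr17:87635729-87636028 on the plus strand. Prom1 has 2 entries, and the one nearest the annotated start of the gene is shown.
Cd44: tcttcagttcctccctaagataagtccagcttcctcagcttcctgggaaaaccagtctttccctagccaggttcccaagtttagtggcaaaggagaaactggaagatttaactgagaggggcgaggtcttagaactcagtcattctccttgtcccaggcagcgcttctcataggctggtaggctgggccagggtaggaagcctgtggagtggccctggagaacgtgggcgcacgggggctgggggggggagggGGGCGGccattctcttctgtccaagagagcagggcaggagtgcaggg
Prom1: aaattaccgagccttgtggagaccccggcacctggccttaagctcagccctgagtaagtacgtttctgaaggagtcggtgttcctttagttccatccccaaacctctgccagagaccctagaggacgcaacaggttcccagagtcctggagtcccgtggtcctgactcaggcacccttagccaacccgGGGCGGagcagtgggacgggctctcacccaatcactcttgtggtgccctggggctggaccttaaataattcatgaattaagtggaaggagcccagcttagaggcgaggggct
Epcam: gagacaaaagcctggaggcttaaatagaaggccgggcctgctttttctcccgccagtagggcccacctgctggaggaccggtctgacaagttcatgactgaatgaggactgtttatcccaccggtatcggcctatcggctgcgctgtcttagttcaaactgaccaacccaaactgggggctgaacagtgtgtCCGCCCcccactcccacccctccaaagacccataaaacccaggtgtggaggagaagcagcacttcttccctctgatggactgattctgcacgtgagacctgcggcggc
Each of the 3 windows held 1 GC box, and the other Prom1 window, chr5:44094719-44095018, held 0. The GC box is found in 35.7% of 32851 such windows. None held CTTTGAT or CTTTGAA, cores bound by TCF/LEF factors, on either strand, while 8.65% of all windows do, and none held TATAAA, which 13.6% of all windows hold. These matches only describe the letters.

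Total counts per library lay between 11176264 and 23343499, and a count of 3 was worth 0.113 to 0.239 CPM. Levels are CPM, in which counts are divided by the library's total, scaled by TMM over all 24 libraries, as mean ± SD of 3 mice. The 6 Lgr5neg libraries stood apart: mitochondrial ribosomal RNA made up 49.5% to 62.4% of their counts, against 37.6% to 47.1% in the 18 others, and their TMM factors were 0.543 to 0.776, against 1.01 to 1.29. Every comparison with Lgr5neg cells holds this difference. A refit without mitochondrial ribosomal RNA changed no member's call against Lgr5neg cells. For Lgr5high over Lgr5neg cells it gave a median log2 difference over all genes of 0.07 in NRG1 mice and 0.05 in PBS mice. The main fit gave 0.08 and 0.09. Beyond that refit, the part of this difference in the comparisons was not tested. Lgr5 itself averaged 180 ± 46.8 CPM in Lgr5high cells of NRG1 mice and 174 ± 62.5 CPM in those of PBS mice, and 1.39 and 1.25 CPM in Lgr5neg cells. In Lgr5med cells Lgr5 averaged 55.0 ± 19.4 CPM with NRG1 and 29.1 ± 19.8 CPM with PBS (log2 change 0.93, edgeR adjusted p = 0.398). In Lgr5low cells it averaged 13.2 ± 7.16 and 8.53 ± 2.48 CPM (log2 change 0.68, edgeR adjusted p = 0.431). The part of these differences in the changes of the members with NRG1 was not tested. All 10 stem cell markers were higher and all 12 enterocyte markers lower in Lgr5high than in Lgr5neg cells of both treatments. Of all genes tested, 65.5% were called in this comparison in NRG1 mice and 67.4% in PBS mice. Lgr5 is among the stem cell markers, and its difference was set by the gates on its reporter. The stem cell markers Ascl2 and Tnfrsf19 did not pass the count filter within Lgr5neg cells, so their differences are descriptions with no test. The gates called progenitors also held goblet cell RNA: Muc2, the main intestinal mucin, averaged 5615 CPM in Lgr5low cells of NRG1 mice and 6224 CPM in those of PBS mice. Since the libraries are bulk samples, fewer cells of a type and less RNA per cell cannot be told apart.

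**Figure D1:**
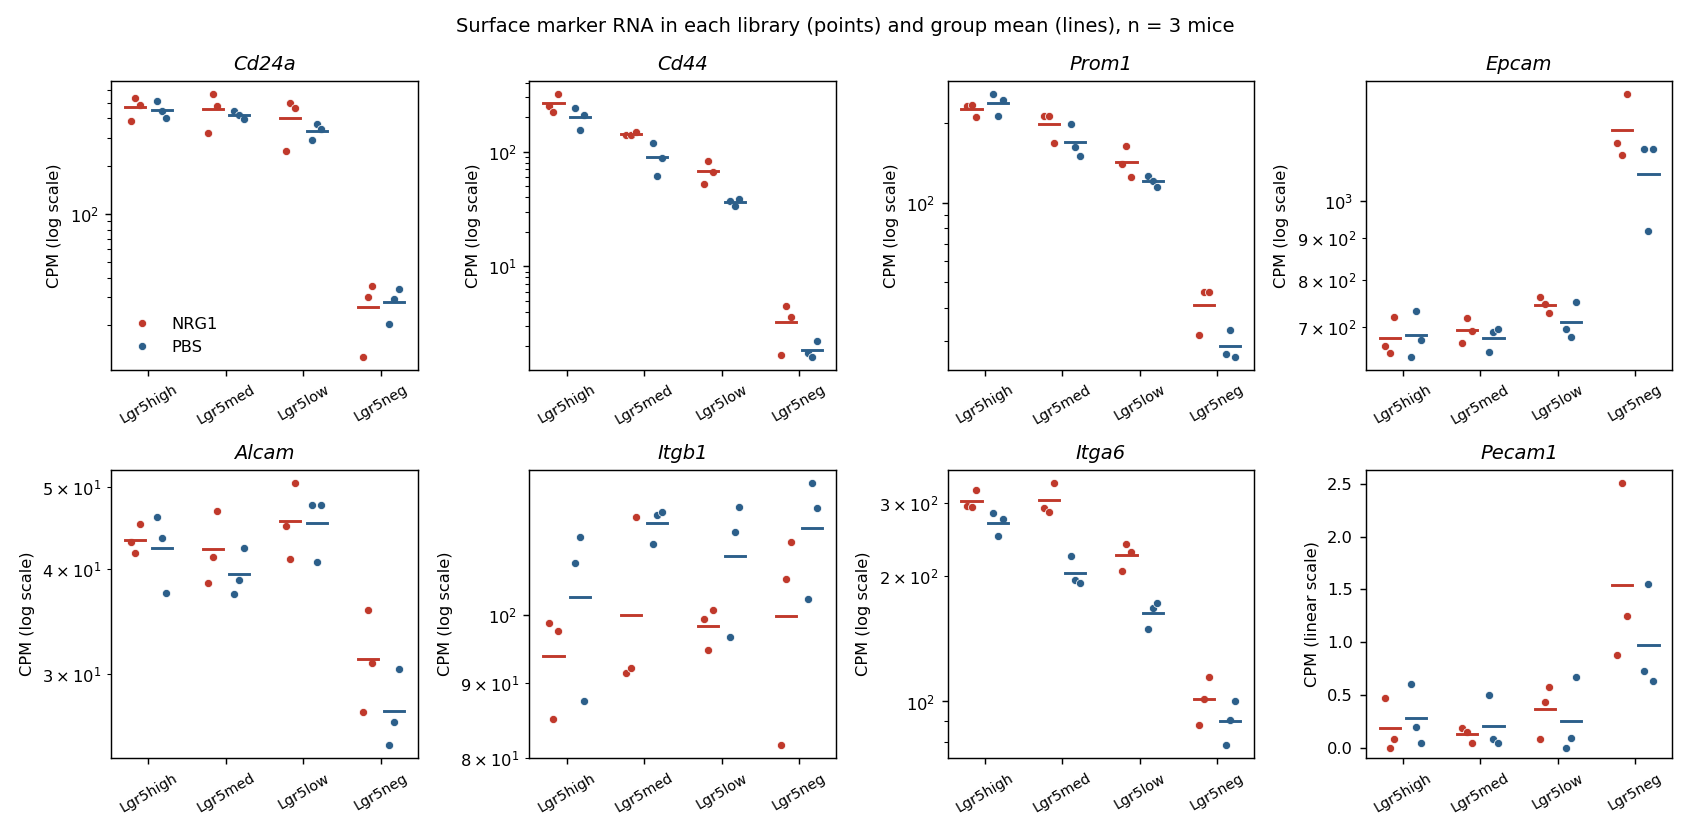
RNA level of each gene in CPM (log scale, but linear for Pecam1) in the 4 populations; points are libraries, lines are group means, NRG1 mice in red and PBS mice in blue. Cd44 averages 264 (NRG1) and 201 (PBS) CPM in Lgr5high cells and 3.26 (NRG1) and 1.87 (PBS) CPM in Lgr5neg cells, while every Itgb1 point lies between 81.6 and 123 CPM.

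Cd44 showed the widest range across gates. In Lgr5high cells it stood at 253, 221 and 318 CPM in NRG1 mice, against 240, 155 and 207 CPM in PBS mice. In Lgr5med cells it stood at 141, 140 and 150 CPM in NRG1 mice, against 118, 61.6 and 87.6 CPM in PBS mice. In Lgr5low cells the values were 52.5, 83.0 and 66.2 CPM with NRG1 and 37.0, 33.4 and 38.6 CPM with PBS. In all 3 NRG1 mice and all 3 PBS mice the level fell at each step of the order Lgr5high, Lgr5med, Lgr5low and Lgr5neg. The NRG1 and PBS groups overlapped in Lgr5high but not in Lgr5med or Lgr5low cells.

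Relative to PBS, Cd44 was higher in NRG1 mice by a log2 change of 0.92 in Lgr5low cells (SE 0.163, 1.90-fold, edgeR adjusted p = 0.0369) and of 0.71 in Lgr5med cells (SE 0.198, 1.63-fold, adjusted p = 0.0496). Itga6 was higher in Lgr5med cells by 0.60 (SE 0.130, 1.51-fold, adjusted p = 0.0121). No other member was called. That made 1 of 7 measured members in Lgr5low cells, where 0.443% of all genes tested were called, and 2 of 7 in Lgr5med cells, where 9.55% were. In Lgr5high cells 0 of 7 were called (7.33% of all genes), with 1 at an unadjusted p under 0.05, and in Lgr5neg cells 0 of 8 (0.328% of all genes), with 1 at an unadjusted p under 0.05. DESeq2 called 0 members in both. The members' median log2 change was 0.05, 0.14, 0.28 and 0.19 in Lgr5high, Lgr5med, Lgr5low and Lgr5neg cells, against 0.01, 0.01, -0.00072 and 0.01 over all genes tested.

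The calls were lost on leaving out certain single libraries, although the log2 change of Cd44 then stayed between 0.50 and 0.97 in Lgr5med and between 0.75 and 1.06 in Lgr5low cells, and that of Itga6 in Lgr5med cells between 0.52 and 0.67. In Lgr5med cells the call ended on leaving out any one of NRG1 replicates 1, 2 and 3 (adjusted p = 0.112, 0.129 and 0.207) or PBS replicates 2 and 3 (0.109 and 0.152). In Lgr5low cells it ended without PBS replicates 1, 2 or 3 (0.110, 0.130 and 0.0599) or NRG1 replicate 2 (0.276). The call of Itga6 in Lgr5med cells ended without PBS replicate 2 (0.0727) or 3 (0.0878).

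Summed levels of stem cell and enterocyte markers stood as follows beside these results. In Lgr5med cells the 10 stem cell markers summed to between 2517 and 3077 CPM in NRG1 mice and between 1491 and 2587 CPM in PBS mice. The 12 enterocyte markers summed to between 1454 and 2041 CPM in NRG1 mice and between 2468 and 2936 CPM in PBS mice. In Lgr5low cells the stem cell sums were 1066 to 1630 CPM with NRG1 and 728 to 797 CPM with PBS. List counts here stand beside 9.55% of all genes tested called by edgeR in Lgr5med and 0.443% in Lgr5low cells. Of the 10 stem cell markers edgeR called 1 higher in each of these populations, Rgmb in Lgr5med cells and Olfm4, a secreted stem cell marker, in Lgr5low cells. In Lgr5med cells 4 of the 10 had an unadjusted p under 0.05 and DESeq2 called 2, and in Lgr5low cells 5 and 3. The median log2 change of the 10 was 0.48 in Lgr5med and 0.64 in Lgr5low cells. Of the 12 enterocyte markers 4 fell in Lgr5med cells and 0 were called in Lgr5low cells by edgeR (6 at an unadjusted p under 0.05, 1 called by DESeq2), where their sums were 3272 to 6373 CPM with NRG1 and 5601 to 8483 CPM with PBS. The stem cell sums overlapped between treatments in Lgr5med but not in Lgr5low cells. The part of these markers' cells in the changes of Cd44 and Itga6 was not tested.

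Itga6, the laminin-binding alpha 6 subunit, had 292, 286 and 336 CPM in Lgr5med cells of NRG1 mice, against 224, 196 and 193 CPM in PBS mice, with no overlap. In Lgr5low cells it had 206, 239 and 229 CPM with NRG1 and 149, 167 and 173 CPM with PBS, also without overlap, and the log2 change of 0.50 (SE 0.132) missed the threshold (adjusted p = 0.129). A fit that blocked on replicate number did call Itga6 in Lgr5low cells (adjusted p = 0.0187), as did DESeq2 (0.0220). In Lgr5high cells the change was 0.19 (adjusted p = 0.339), at 295, 294 and 322 CPM with NRG1 and 283, 250 and 276 CPM with PBS, again without overlap. In Lgr5neg cells the change was 0.17 (adjusted p = 0.779), at 87.6, 101 and 114 CPM with NRG1 and 78.5, 90.5 and 100.2 CPM with PBS, which overlap. Groups did not overlap for 1, 2, 2 and 0 members in Lgr5high, Lgr5med, Lgr5low and Lgr5neg cells, as they did not for 27%, 30.6%, 18.5% and 15.9% of all genes tested.

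Cd44 differed by 0.41 in Lgr5high cells (SE 0.164, adjusted p = 0.150) and by 0.80 in Lgr5neg cells, at counts of 21 to 70 per NRG1 library and 21 to 28 per PBS library (SE 0.432, adjusted p = 0.546). Prom1 changed by -0.06, 0.24, 0.28 and 0.52 in Lgr5high, Lgr5med, Lgr5low and Lgr5neg cells, none of them called. In Lgr5neg cells it had 31.5, 46.0 and 46.2 CPM with NRG1 and 26.8, 33.1 and 26.2 CPM with PBS, and the fit with a block by replicate number called it there (adjusted p = 0.0226, against 0.324 without the block). Itgb1, the common beta 1 subunit, had log2 changes of -0.11, -0.19, -0.12 and -0.20 in the same order and was called in no population. Cd24a, Epcam and Alcam were called in no population either.

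**Figure D2:**
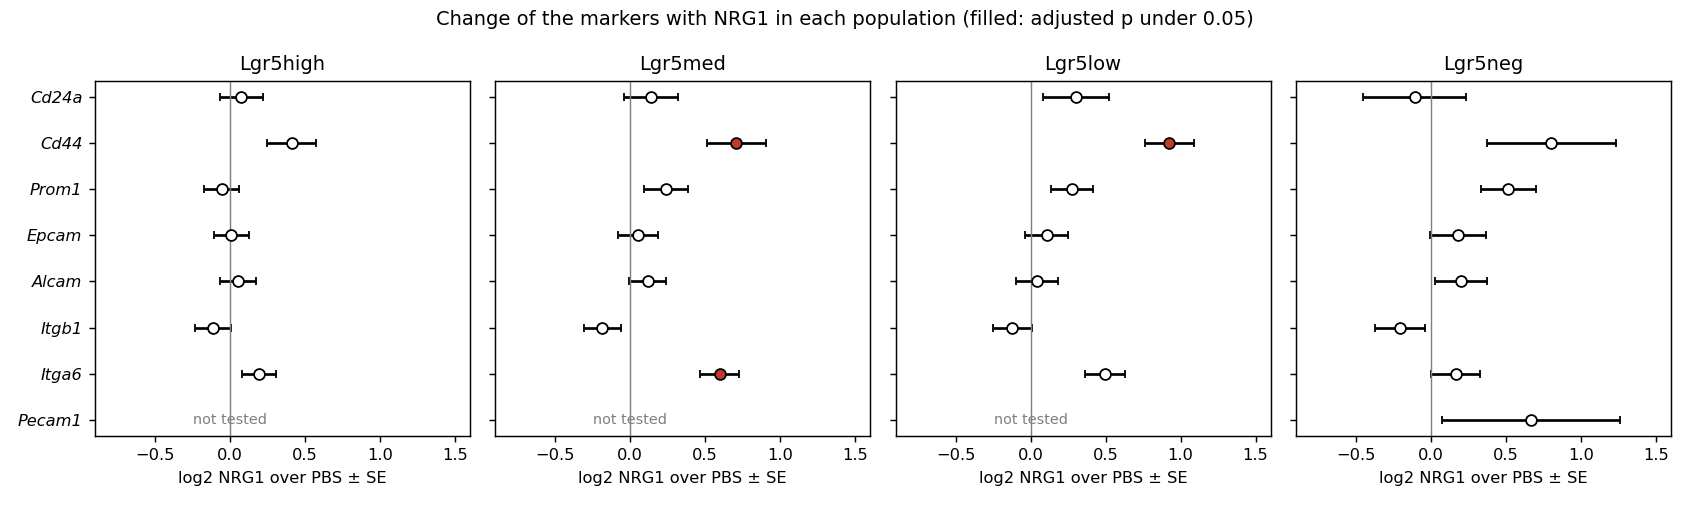
Log2 change with NRG1 over PBS (± SE of the edgeR fit) for each gene in the 4 populations; filled points passed an adjusted p under 0.05. Only Cd44 in Lgr5med and Lgr5low cells and Itga6 in Lgr5med cells are filled; Pecam1 had too few counts to test outside Lgr5neg cells.

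Whether the response to NRG1 differed between populations was tested as an interaction with Lgr5high cells, and no member was called. For Cd44 the response of Lgr5high cells minus that of Lgr5med, Lgr5low and Lgr5neg cells was -0.29, -0.52 and -0.42 on the log2 scale. For Itga6 it was -0.40 against Lgr5med cells (unadjusted p = 0.0346, adjusted p = 1.00) and -0.31 against Lgr5low cells. For Prom1 it was -0.58 against Lgr5neg cells (unadjusted p = 0.0119, adjusted p = 0.412). Of all genes, 0 were called against Lgr5med and Lgr5low cells, where 576 and 676 had an unadjusted p under 0.05 and DESeq2 called 0, and 8 were called against Lgr5neg cells (0.0532% of genes tested), none of them a member, with 1 member at an unadjusted p under 0.05.

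Along the order of the gates, Cd44 had the steepest difference and Prom1 followed among the genes that no gate fixed. Between Lgr5high and Lgr5neg cells Cd44 differed by a log2 difference of 6.21 in NRG1 mice (SE 0.278, adjusted p = 2.61e-11) and 6.67 in PBS mice (SE 0.276, adjusted p = 1.19e-12). Prom1 differed by 2.35 in NRG1 mice and 2.97 in PBS mice, and Itga6 by 1.48 and 1.51. Of the 6 genes that encode no sort marker, 5 were called in NRG1 mice and 5 in PBS mice, where 65.5% and 67.4% of all genes tested were called. Groups did not overlap for 5 of the 6 in each treatment, against 70.5% and 71.3% of all genes.

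Prom1 had 231, 234 and 210.2 CPM in Lgr5high cells of NRG1 mice and 257, 213 and 244 CPM in those of PBS mice. It had 212, 213 and 167 CPM in Lgr5med cells with NRG1, against 198, 162 and 149 CPM with PBS, and averaged 142 ± 19.3 and 120.4 ± 5.52 CPM in Lgr5low cells. In all 3 mice of each treatment Prom1 fell at every step of the order of the gates. Itga6 did so in 2 of 3 NRG1 mice and 3 of 3 PBS mice.

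Cd24a followed the CD24 gate. It had 384, 533 and 485 CPM in Lgr5high cells of NRG1 mice and 511, 445.2 and 399 CPM in those of PBS mice. In Lgr5neg cells it had 12.8, 30.03 and 35.4 CPM with NRG1 and 20.3, 29.4 and 34.1 CPM with PBS. The log2 difference of Lgr5high over Lgr5neg cells was 4.06 in NRG1 mice and 3.93 in PBS mice. Between treatments the groups overlapped in every population.

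Epcam went the other way. It averaged 677 ± 37.1 CPM in Lgr5high cells of NRG1 mice and 683 ± 45.2 CPM in those of PBS mice, and 1225 ± 115 CPM and 1080 ± 139 CPM in Lgr5neg cells. The log2 difference of Lgr5high over Lgr5neg was -0.96 in NRG1 mice (adjusted p = 6.54e-06) and -0.74 in PBS mice (adjusted p = 9.66e-05). Between Lgr5low and Lgr5neg cells it was -0.78 and -0.69. In no mouse was Epcam higher in Lgr5high than in Lgr5neg cells.

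Alcam, which binds CD6 and itself, was higher in Lgr5high than in Lgr5neg cells, at 43.3 ± 1.73 CPM in Lgr5high cells of NRG1 mice and 31.2 ± 4.36 CPM in Lgr5neg cells, and at 42.3 ± 4.44 and 27.1 ± 2.94 CPM in PBS mice. The log2 difference was 0.37 in NRG1 mice (adjusted p = 0.0262) and 0.56 in PBS mice (adjusted p = 0.00120). In NRG1 mice its call ended without Lgr5high replicate 1 (0.0529) or 3 (0.0686) or Lgr5neg replicate 1 (0.0960) or 3 (0.0557). Itgb1 differed between Lgr5high and Lgr5neg cells by -0.19 in NRG1 mice and -0.23 in PBS mice, neither of them called. Its values spanned 85.1 to 98.8 CPM in Lgr5high cells with NRG1 and 87.4 to 113 CPM with PBS, and 81.6 to 112 CPM in Lgr5neg cells with NRG1 and 102 to 123 CPM with PBS.

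Between Lgr5low and Lgr5neg cells the log2 difference of Cd44 was 4.29 in NRG1 mice and 4.20 in PBS mice, that of Prom1 was 1.73 and 1.99, that of Itga6 1.09 and 0.78, that of Alcam 0.48 and 0.66, and that of Cd24a 3.89 and 3.50. Itgb1 differed by -0.08 and -0.15 and was not called. Of the 6 genes that encode no sort marker, these comparisons called 5 in NRG1 mice, where 57% of all genes tested were called, and 5 in PBS mice, where 55.8% were. Groups did not overlap for 5 of the 6 in each, against 61% and 59.9% of all genes. The median of all genes was itself shifted by 0.11 in both.

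The steps among the Lgr5-positive gates were smaller. Cd44 was higher in Lgr5high than in Lgr5med cells, with a log2 difference of 0.85 in NRG1 mice (adjusted p = 0.0377) and 1.17 in PBS mice (adjusted p = 0.00127). For Lgr5med over Lgr5low cells it was 1.07 (adjusted p = 0.00962) and 1.30 (adjusted p = 0.000875). Prom1 differed by 0.17 and 0.48 over the first step and by 0.45 and 0.50 over the second, called in PBS mice (adjusted p = 0.0352 and 0.0331) and not in NRG1 mice (0.690 and 0.123), and for the first step the difference between the treatments had an unadjusted p of 0.185 as an interaction in the edgeR fit. Members called numbered 1 and 1 in NRG1 mice, where 3.11% and 4.72% of all genes were called, and 2 and 2 in PBS mice, where 9.17% and 7.59% were. Groups did not overlap for 1 and 4 members in NRG1 mice, against 24.3% and 26% of all genes, and for 3 and 4 in PBS mice, against 30.4% and 28.6%.

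Itga6 differed by -0.03 between Lgr5high and Lgr5med cells in NRG1 mice and by 0.40 in PBS mice (adjusted p = 0.957 and 0.0671), and by 0.42 and 0.33 between Lgr5med and Lgr5low cells (0.0852 and 0.153). With a block by mouse, Itga6 was called between Lgr5high and Lgr5med cells in PBS mice (0.0497) and between Lgr5med and Lgr5low cells in NRG1 mice (0.0245), where Prom1 was also called (0.0448). Cd24a, whose gate was the same for these populations, differed by 0.33 between Lgr5med and Lgr5low cells in PBS mice (adjusted p = 0.263).

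Several of these step calls were lost on leaving out 1 library, while the log2 differences kept their direction: Cd44 stayed between 0.71 and 0.96 for Lgr5high over Lgr5med cells and between 0.93 and 1.24 for Lgr5med over Lgr5low cells of NRG1 mice. Prom1 in PBS mice stayed between 0.39 and 0.61 and between 0.37 and 0.59. Cd44 between Lgr5high and Lgr5med cells of NRG1 mice lost its call without Lgr5high replicates 1 or 3 or any Lgr5med replicate (adjusted p = 0.119, 0.181, 0.0838, 0.143 and 0.131), and between Lgr5med and Lgr5low cells of NRG1 mice without Lgr5low replicate 3 (0.0513). Prom1 lost its call between Lgr5high and Lgr5med cells of PBS mice without Lgr5high replicate 1 or 3 (0.156 and 0.110) or Lgr5med replicate 2 or 3 (0.163 and 0.214). Between Lgr5med and Lgr5low cells of PBS mice it did so without Lgr5med replicate 1 or 2 (0.233 and 0.0652) or Lgr5low replicate 1, 2 or 3 (0.0619, 0.0755 and 0.123).

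**Figure D3:**
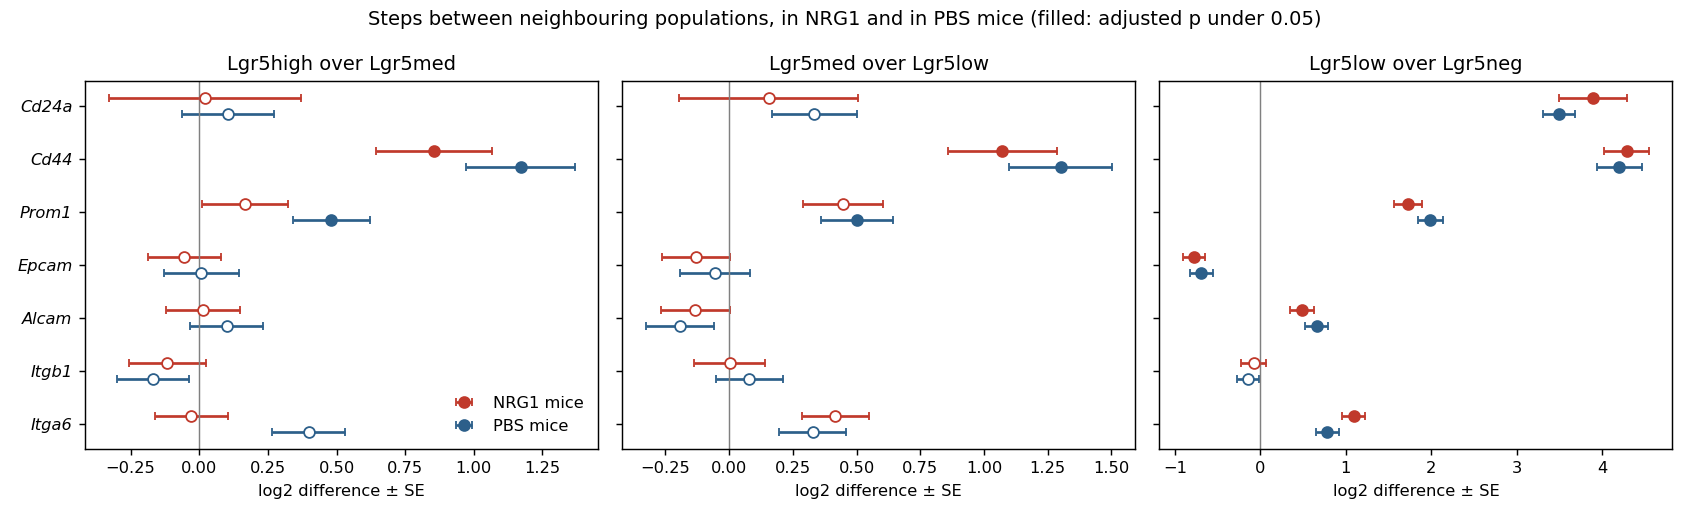
Log2 difference (± SE) of each gene between neighbouring gates, in NRG1 mice (red) and PBS mice (blue); filled points passed an adjusted p under 0.05. Cd44 is filled at every step in both treatments, while Epcam is below 0 between Lgr5low and Lgr5neg cells.

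Pecam1 RNA was near the floor. It had 0 to 14 counts per library in the 3 Lgr5-positive gates and 8 to 39 counts in Lgr5neg cells, where it averaged 1.55 ± 0.854 CPM in NRG1 mice and 0.972 ± 0.505 CPM in PBS mice. Between these 2 groups the log2 change was 0.67 (SE 0.595, adjusted p = 0.748). Ptprc, which encodes CD45, was at 2.43 to 23.7 CPM in Lgr5neg cells of NRG1 mice and 6.11 to 7.96 CPM in those of PBS mice, and at most 0.516 CPM in the other gates.

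The 13 endothelial markers summed to 1.91 to 5.94 CPM over all libraries, and Cdh5, which encodes VE-cadherin, had 0 counts in all 24. Of the 3 that were measured between Lgr5high and Lgr5neg cells, Esam (log2 difference 6.30 in NRG1 mice and 5.29 in PBS mice) and Vwf (4.47 and 3.49) were higher in Lgr5high cells, and Egfl7 was lower (-2.55 and -2.43). Esam and Vwf did not pass the count filter within Lgr5neg cells, so their values are descriptions with no test. The 17 leukocyte genes summed to 53.7 to 77.0 CPM in Lgr5high cells of NRG1 mice and 40.0 to 55.7 CPM in those of PBS mice. In Lgr5neg cells they summed to 57.2 to 430 CPM with NRG1 and 88.4 to 182 CPM with PBS, so the sums of these gates overlapped in NRG1 mice. The sum in Lgr5high cells was mostly Lcp1, an actin-bundling gene of the list. In PBS mice Lcp1 was at 44.9 CPM there, against a mean sum of 46.5 CPM.

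The fitted log2 difference of Pecam1 for Lgr5high over Lgr5neg cells was -3.15 in NRG1 mice and -1.86 in PBS mice, and for Lgr5low over Lgr5neg cells -2.10 and -2.03. These are descriptions with no test, since Pecam1 was measured only in fits that held Lgr5neg libraries, where it was highest. Leaving out 1 library moved the PBS value for Lgr5low over Lgr5neg cells as far as -4.35 (without Lgr5low replicate 3) and that for Lgr5high over Lgr5neg cells to -2.99 (without Lgr5high replicate 1). In NRG1 mice the value for Lgr5high over Lgr5neg cells was -5.12 without Lgr5high replicate 1. The part of leukocyte or endothelial RNA in these values was not tested.

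Per kilobase of exon, Epcam had the highest level of the 8 genes in Lgr5high cells of PBS mice, at 311 ± 20.6 CPM per kb, followed by Cd24a at 175 ± 21.8. Prom1, Itga6, Cd44 and Itgb1 followed at 33.1 ± 3.14, 29.9 ± 1.97, 29.7 ± 6.33 and 25.2 ± 3.33 CPM per kb. Among Prom1, Itga6, Cd44 and Itgb1 the SD ranges of neighbours in this order overlapped, while those of Prom1 and Itgb1 did not. In Lgr5neg cells of PBS mice Epcam stood at 492 ± 63.2 CPM per kb and Cd44 at 0.276 ± 0.0460.

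Itgb4, which pairs with alpha 6 in hemidesmosomes, ran opposite to Itga6. Itgb4, Itga1 and Itga5 were picked after their values were seen. Itgb4 stood at 43.2 ± 5.05 CPM in Lgr5high cells of NRG1 mice and 40.8 ± 4.19 CPM in those of PBS mice, and at 119 ± 3.02 and 126 ± 15.0 CPM in Lgr5neg cells, with log2 differences of -1.57 and -1.71. Itga3, another laminin-binding subunit, differed by -1.89 and -2.32, and Itgb5 by -4.52 and -3.92, while Itga1, a collagen-binding subunit, differed by 1.21 and 1.66. All of these were called in both treatments. Itga5 went the way of Itga1, at 2.74 CPM in Lgr5high and 0.252 CPM in Lgr5neg cells of NRG1 mice, and 1.72 and 0.105 CPM in PBS mice. It did not pass the count filter within Lgr5neg cells, so these levels are descriptions with no test. Of 16 measured subunits other than the members, 3 were higher and 7 lower in Lgr5high cells of NRG1 mice, and 3 higher and 9 lower in those of PBS mice. Of all genes tested, 65.5% were called in NRG1 mice and 67.4% in PBS mice. The median log2 difference of the subunits was -0.95 in NRG1 mice and -1.44 in PBS mice, against 0.08 and 0.09 over all genes tested. These counts and medians can hold subunits that passed the count filter only through the gate where they are high. Itga2b, Itga7 and Itgax did not pass it within Lgr5high cells, as Itga5 did not within Lgr5neg cells. The counts and medians are therefore descriptions with no test.

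The genes that act with the members were mixed in direction. Their counts stand beside 65.5% of all genes called between Lgr5high and Lgr5neg cells in NRG1 mice and 67.4% in PBS mice. These counts too can hold genes that passed the count filter only through the gate where they are high, so they are descriptions. Of 16 measured integrin adaptors, 6 were higher and 8 lower in Lgr5high than in Lgr5neg cells of NRG1 mice, and 6 higher and 9 lower in PBS mice, with Actn1, an actin cross-linker, at 2.96 and 2.91 on the log2 scale. Of 10 EpCAM partners and claudin genes, 2 were higher and 7 lower in NRG1 mice, and 2 higher and 5 lower in PBS mice. Spint1, a protease inhibitor, differed by -2.69 and -2.44, Cldn7, a claudin bound by EpCAM, by -1.51 and -1.23, and Prss8, a membrane protease, by 1.40 and 1.55. Of 12 CD44 partners, 4 were higher and 3 lower in NRG1 mice and 5 higher and 3 lower in PBS mice. Of 19 other surface markers, 10 were higher and 8 lower in NRG1 mice and 9 higher and 7 lower in PBS mice. These counts include Lgr5, whose reporter set the gates, so its difference checks the sort and is not a finding. Ephb3, an ephrin receptor of the crypt base, differed by 6.32 and 5.67. It did not pass the count filter within Lgr5neg cells, so these values are descriptions with no test.

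**Figure D4:**
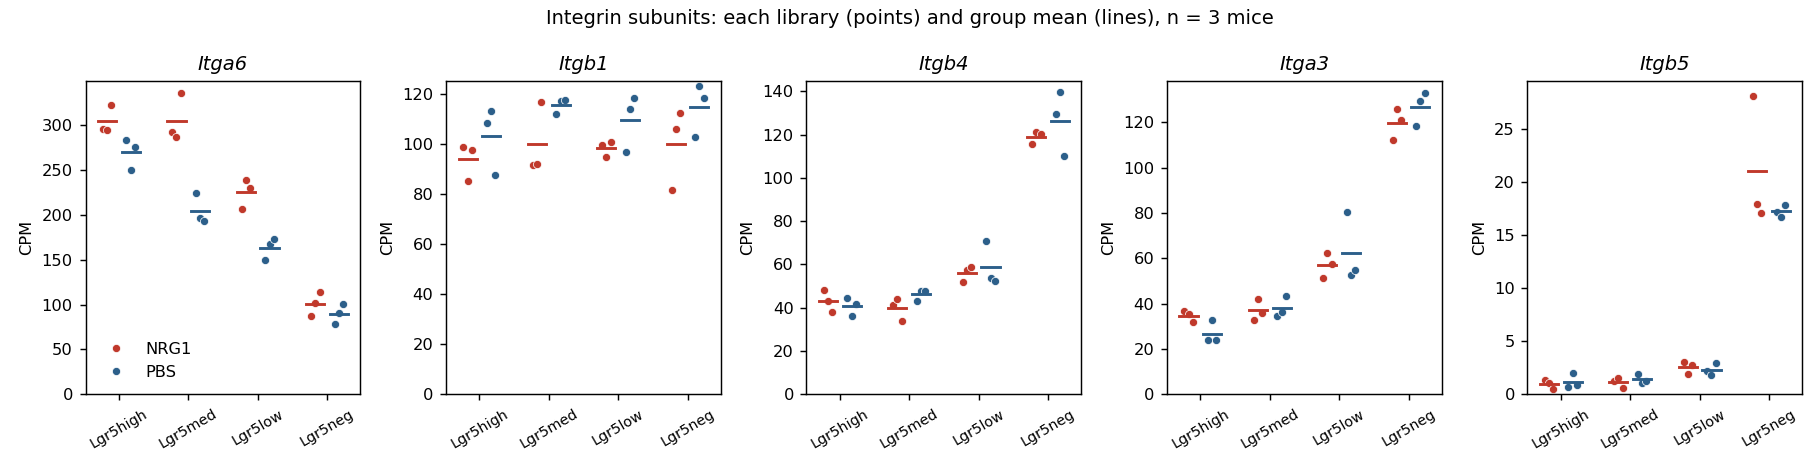
CPM of 5 integrin subunits in each library (points) with group means (lines), NRG1 in red and PBS in blue. Itga6 falls toward Lgr5neg cells, Itgb1 is level, and Itgb4, Itga3 and Itgb5 rise toward Lgr5neg cells.

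With NRG1, list counts stand beside 7.33% of all genes called in Lgr5high and 9.55% in Lgr5med cells. Hmmr, a hyaluronan-binding protein of dividing cells, was at 115 ± 17.5 CPM in Lgr5high cells with NRG1, against 56.2 ± 4.24 CPM with PBS (log2 change 1.05), and rose by 0.65 in Lgr5med cells. It was the gene called higher of 11 measured CD44 partners in both populations, and Esrp2, a splicing regulator of Cd44, was the gene called lower in Lgr5med cells (-0.43). Of the other surface markers, 2 of 18 rose in Lgr5high cells and 2 of 19 in Lgr5med cells. They were Kit, a receptor tyrosine kinase (0.77), and the tetraspanin Cd9 (0.55) in Lgr5high cells, and Cd9 (0.66) and the transferrin receptor gene Tfrc (0.53) in Lgr5med cells.

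Of 10 EpCAM partners, Cd9 rose and Spint2 fell (-0.43) in Lgr5high cells, and Cd9 rose in Lgr5med cells. Of the integrin adaptors, Actn1 rose in Lgr5high cells (0.43), and 0 of 14 were called in Lgr5med cells by edgeR (5 at an unadjusted p under 0.05, 2 called by DESeq2). Of the integrin subunits, 0 of 13 were called in Lgr5high cells (2 unadjusted, 0 by DESeq2). In Lgr5med cells Itga1 rose (0.51) and Itgam, a leukocyte subunit, was called lower (-0.83), as it was in Lgr5neg cells (-0.94). Itgam is uncertain, since 68.7% of its exonic bases lie in another gene on the same strand. In Lgr5low cells edgeR called 0 genes of all 5 lists. Unadjusted p was under 0.05 there for 2 integrin subunits, 1 adaptor, 1 EpCAM partner, 3 CD44 partners and 4 other surface markers, and DESeq2 called 1 integrin subunit. In Lgr5neg cells no other gene of the 5 lists was called by edgeR or DESeq2 than Itgam, and 2 adaptors and 3 CD44 partners had an unadjusted p under 0.05.

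Across all 24 libraries, log2 CPM of Cd44 followed Prom1 with a Pearson r of 0.987, and of 0.924 over the 18 libraries without Lgr5neg cells; Cd44 and Itga6 gave 0.975 and 0.906. These libraries share mice and gates, so the r values only describe them. Among 7298 genes with enough counts, the genes most like Cd44 were Aqp4, Cps1 and Prelp (r = 0.995, 0.995 and 0.994), and those most like Itga6 were Cdo1, Mpzl1 and Prelp (0.980, 0.980 and 0.979). Itgb1 was matched best by Pdpk1, at 0.854.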

How the data were processed

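The values are raw counts of reads per gene symbol, which the authors deposited as whole numbers, made with STAR and featureCounts on GRCm38 per the submitters' processing notes. Versions, annotation release and strand setting are not given in the sources used here. All further values were computed here. Differences were tested with edgeR 4.0.16 under R 4.3.3, using its quasi-likelihood fit (TMM scaling, minimum count 10, minimum total 15, robust) and p-values adjusted by Benjamini-Hochberg over all genes tested, and called at an adjusted p under 0.05. NRG1 was compared with PBS on 6 libraries in each population, gates on the 12 libraries of each treatment, and interactions on all 24. DESeq2 1.42.0 was an alternative. Simulated data had changes of 1 and of 2 on the log2 scale, in 100 genes each, placed only in better-counted genes. For NRG1 against PBS in Lgr5med cells (13394 genes), 80% of changes of 1 and 100% of changes of 2 were recovered. There 24 of 12942 unchanged genes were also called. For the interaction of Lgr5high with Lgr5neg cells (15045 genes), 34% of changes of 1 and 91% of changes of 2 were recovered. Of 14353 unchanged genes 8 were called there.

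Replicates are separate mice, each giving 1 library per population. Libraries of the same replicate number deviated together across treatments in 12 of 12 pairs (r 0.12 to 0.46), so the replicate number was tried as a block. The same was done with the mouse, where 20 of 24 pairs had r over 0.1.

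The text names the 8 members, up to 3 called genes per list and comparison with the largest change, and a set of defining markers. It also names the 3 genes most like Cd44 and most like Itga6, the best match of Itgb1, and the integrin genes picked on their values. The members and lists were chosen with earlier results of these data known. Exon lengths and coordinates are from GENCODE vM21. Prom1 shares 5.91% of its exonic bases with an antisense gene, and Itgam shares 68.7% with another gene. Floors cover counting error only.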

Additional observations from a re-analysis of the deposited data

How the results depend on the processing

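The 801 alternative values of single members that the text reports kept their direction and side of the threshold in 750 cases. Of the others, 36 lost and 11 gained a call, and 4 had the opposite sign. Those 4 were Itga6 between Lgr5high and Lgr5med cells of NRG1 mice (-0.03 as reported, 0.015 with RLE scaling, 0.015 with DESeq2, and between -0.078 and 0.054 on leaving out a library, the highest without Lgr5med NRG1 replicate 3) and Itgb1 between Lgr5low and Lgr5neg cells of NRG1 mice (between -0.20 and 0.015 on leaving out a library, the highest without Lgr5neg NRG1 replicate 3). Over all members and comparisons, 74 of 1460 alternative values had the opposite sign, none of them called in either form.

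The replicate block changed no call of a member other than those given above. With it, members called numbered 2 for NRG1 in Lgr5low cells, 1 in Lgr5neg cells, and 3 between Lgr5med and Lgr5low cells of NRG1 mice. Between Lgr5high and Lgr5med cells of PBS mice it added the call of Itga6 (edgeR adjusted p = 0.0497). With the block, genes called for NRG1 numbered 2333 in Lgr5med (1279 without), 573 in Lgr5low (59) and 839 in Lgr5neg cells (39). In NRG1 mice they numbered 913 between Lgr5high and Lgr5med cells (3.11% of genes without) and 1266 between Lgr5med and Lgr5low cells (675), and for the interactions 1 with Lgr5low and 65 with Lgr5neg cells.

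DESeq2 called 306 genes for NRG1 in Lgr5low and 197 in Lgr5neg cells, 805 and 1156 for the 2 steps in NRG1 mice, and 47 for the interaction with Lgr5neg cells; it called 2 members in Lgr5low cells and 2 at the second step in NRG1 mice. Without the filter, 497 and 272 genes were called in Lgr5low and Lgr5neg cells, 1059 and 1268 at the steps in NRG1 mice, 17, 35 and 150 for the interactions, and 1 member, Cd44, in Lgr5high cells (adjusted p = 0.0450). With all 24 libraries in 1 model, 480, 129 and 306 genes were called in Lgr5high, Lgr5low and Lgr5neg cells, and 1 and 0 members in Lgr5med and Lgr5low cells, where Cd44 had adjusted p = 0.0699 and 0.0568.

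Leaving out 1 library at a time, the genes called ranged over 491 to 1186 (NRG1 versus PBS in Lgr5high), 422 to 1118 (NRG1 versus PBS in Lgr5med), 1 to 72 (NRG1 versus PBS in Lgr5low), 0 to 90 (NRG1 versus PBS in Lgr5neg), 634 to 1425 (Lgr5high versus Lgr5med in PBS mice), 464 to 1004 (Lgr5med versus Lgr5low in PBS mice), 126 to 487 (Lgr5high versus Lgr5med in NRG1 mice), 204 to 738 (Lgr5med versus Lgr5low in NRG1 mice), 0 to 0 (NRG1 response of Lgr5high minus Lgr5med), 0 to 0 (NRG1 response of Lgr5high minus Lgr5low), 1 to 18 (NRG1 response of Lgr5high minus Lgr5neg). The lowest counts came without Lgr5high PBS replicate 2, Lgr5med PBS replicate 3, Lgr5low NRG1 replicate 2 and Lgr5neg PBS replicate 1 or 3 for NRG1 in the 4 populations. For the steps they came without Lgr5med replicate 3 and Lgr5med replicate 1 in PBS mice, and without Lgr5high replicate 1 or Lgr5med replicate 3, and without Lgr5low replicate 3, in NRG1 mice. The members called ranged over 0 to 2 (NRG1 versus PBS in Lgr5med), 0 to 1 (NRG1 versus PBS in Lgr5low), 1 to 2 (Lgr5high versus Lgr5med in PBS mice), 1 to 2 (Lgr5med versus Lgr5low in PBS mice), 6 to 7 (Lgr5low versus Lgr5neg in PBS mice), 6 to 7 (Lgr5high versus Lgr5neg in PBS mice), 0 to 1 (Lgr5high versus Lgr5med in NRG1 mice), 0 to 1 (Lgr5med versus Lgr5low in NRG1 mice), 6 to 7 (Lgr5low versus Lgr5neg in NRG1 mice), 6 to 7 (Lgr5high versus Lgr5neg in NRG1 mice). The ranges against Lgr5neg cells include Cd24a and Pecam1, the genes of the sort markers, and are no finding. In PBS mice Pecam1 passed the threshold only without Lgr5low replicate 3 or Lgr5high replicate 1. Of the 6 other genes, 5 were called with all libraries. Of all genes, 57% and 65.5% were called in NRG1 mice for Lgr5low and Lgr5high over Lgr5neg cells, and 55.8% and 67.4% in PBS mice.

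The cause of these shifts was not tested. Pecam1 had few counts, and its change with NRG1 in Lgr5neg cells had an SE of 0.595 on the log2 scale.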
